A study of Mus musculus with 2 samples.

Results

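Complement, coagulation and fibrinolysis genes were examined by RNA sequencing of mouse hearts in a model labelled HFD-MI, that is high-fat diet and myocardial infarction. The 47 genes were taken by symbol from a list of complement components, regulators and receptors, clotting factors, anticoagulants, and the plasminogen system, out of 24346 gene symbols in the deposited tables. All 47 were listed in both tables. There were 2 libraries, 1 of heart from an animal or animals labelled as treated with probucol, a lipid-lowering antioxidant drug, and 1 labelled untreated. Both carry the HFD-MI label and the age label day 14, without the event from which the days were counted. The column headers of both tables carry the mark HypoE, a usual short name for mice with a hypomorphic Apoe allele, but the labels state no genotype; the headers also carry the mark CM, which is not explained. The sources used here give neither the region of heart sampled nor the number of animals per library. The frozen tissue expressed heart muscle genes at high levels in both libraries, such as Myh6 at 4461 FPKM with probucol and 3015 without.

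Complement is a cascade of plasma proteases. The C1 complex, built of C1q with the proteases C1r and C1s, starts the classical pathway, C3 is the point where all pathways meet, and factors B, D and properdin form the alternative amplification loop. Coagulation begins when tissue factor meets factor VII, runs through factor X to thrombin, and ends in fibrin that factor XIII crosslinks. Plasmin, released from plasminogen by the tissue and urokinase activators, dissolves fibrin. Most circulating factors are made by the liver, while C1q, properdin and the A subunit of factor XIII are typical products of macrophages, and thrombomodulin, the protein C receptor and von Willebrand factor are typical of endothelium.

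Values are FPKM (fragments per length of transcript and per number of mapped fragments), which allow levels of different genes to be set side by side per length. With 1 library per group there is no spread between replicates and no test, so each statement describes these libraries. The log2 ratio is log2((FPKM probucol + 0.5)/(FPKM untreated + 0.5)), and folds called lower or higher are on this scale, which understates differences of low genes. A gene counted as measured when its mean FPKM was at least 0.5. For genes with 1 curated transcript, fragment numbers were estimated from the FPKM, and the exact Clopper-Pearson 95% interval of the FPKM ratio, without a pseudocount, is given. Such intervals hold counting error alone, because each group has 1 library. Where copies of a molecule made by PCR were counted as separate fragments, the intervals are too narrow even for that. At 1 kb of effective length, 1 FPKM was worth 6.65 fragments with probucol and 7.47 without, so the depths were close.

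Complement and fibrinolysis genes were mostly lower in the probucol library, while Thbd and Cd59a were moderately higher, by less than 1.5-fold at the deposited scaling. Of the 47 genes, 37 were measured, 34 of them with at least 0.5 FPKM in each library. C2 and F7 reached the filter through the untreated library and F2rl1 through the probucol library. Of the 37, 21 were at least 1.5-fold lower (56.8%), against 12% of all 12882 measured genes, and 14 were at least 2-fold lower, against 5.14%. In the other direction 1 gene, Cfd, was past 1.5-fold and also past 2-fold, where 5.52% and 1.07% of all measured genes were. Over protein-coding genes alone, a background added after the data were seen, 11.9% and 5.07% were lower and 4.91% and 0.772% higher by these limits. The median log2 ratio of the 37 was -0.66, beside 0.01 for all measured genes. All 8 heart muscle markers lay the other way, with log2 ratios above 0, a median of 0.44 and a summed FPKM of 69875 against 50590, and none was at 0; their part in the lower values of the list was not tested. The counts of the 37 genes describe a list chosen with earlier results of these data known. The summed FPKM of the 47 genes was 1928 with probucol and 3617 without. Of the 32 genes whose fragments were estimated from 1 transcript, the counting interval lay below 1 for 20 and above 1 for 2, F5 and Thbd. Cd59a and Cfd, with several transcripts, are not among the 32 and had intervals above 1. The share of all measured genes with such intervals was not computed, so these counts are not read as particular to the list. At high fragment numbers a small difference is enough to leave 1 outside the interval.

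**Figure D1:**
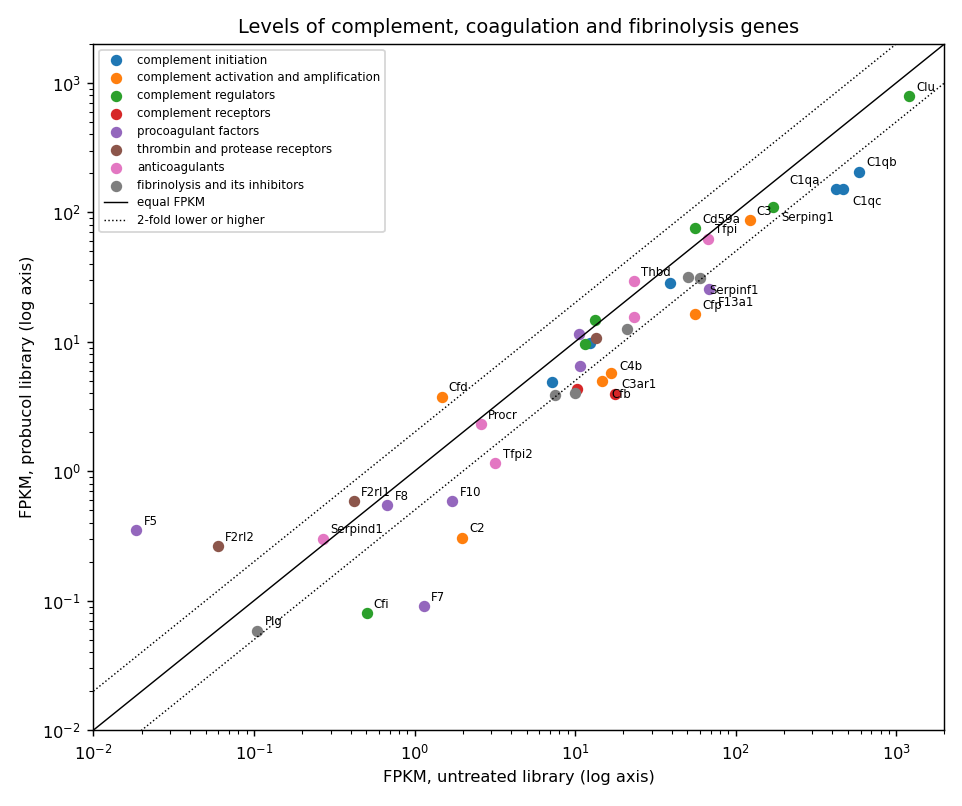
FPKM of each gene in the untreated (x) and the probucol library (y), both on log axes, coloured by role, with lines for equal FPKM and for 2-fold differences. Genes listed at 0 in either library (F2, Hc, Proc, Serpinc1 and Serpinf2) are left out, and some names in the dense centre are not printed; Clu has the highest level in both libraries, the 3 C1q chains lie below the 2-fold line, and Cfd, F5 and F2rl2 lie above it.

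The 3 chains of C1q, the recognition molecule of the classical pathway, were about 3-fold lower and nearly equal in their ratios. C1qa had 151 FPKM with probucol and 424 without. C1qb had 206 against 589 FPKM, and C1qc had 153 against 469 FPKM. Their log2 ratios were -1.48, -1.52 and -1.61, and the counting intervals of the FPKM ratios were 0.330 to 0.386, 0.327 to 0.373 and 0.304 to 0.350. Within a library the chains kept close proportions: C1qb was at 1.36 times C1qa with probucol and 1.39 times without. C1qc was at 1.01 times C1qa with probucol and 1.11 times without. Together they held 26.4% of the summed FPKM of the 47 genes with probucol and 41.0% without.

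The proteases that C1q carries differed much less. C1ra had 9.77 against 12.5 FPKM, a log2 ratio of -0.34 with an interval of the FPKM ratio from 0.644 to 0.951. C1s1 had 28.5 against 38.8 FPKM (log2 ratio -0.43). Masp1, the lectin-pathway protease, had 4.87 against 7.21 FPKM (log2 ratio -0.52). None of these 3 reached 1.5-fold. The level of C1qa relative to C1ra was therefore 15.5 with probucol and 34.0 without, and relative to C1s1 5.30 and 10.9.

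The C1q genes lie side by side on chromosome 4 of GRCm38/mm10, all on the minus strand, with 3600 bases between C1qb (136880126 to 136886200) and C1qc and 2979 bases between C1qc and C1qa by RefSeq. Of the flanking genes within 50 kb, Epha8 was listed at 0 in both libraries and Ephb2 had 0.161 against 0.288 FPKM, so neither was measured. The 250 bases before the start are shown for 4 of the genes that were lower together and for Cfd, which was higher. These 5 were chosen after their values were seen. RefSeq promoters (GRCm38.p6) matched 32 of the 47 genes, C1qa not among them. The starts used for C1qc and C3ar1 lie within the spans of these genes in GENCODE, which end at 136893065 and 122856161. The start used for C1qb lies outside the GENCODE span of that gene, which ends at 136886187. Capitals mark matches, on either strand, to GAGGAA, the core that the myeloid factor PU.1 recognises, TGCTGA, a half-site of Maf factors, the interferon-stimulated response element (GAAA, any 2 bases, GAAA) or TATAAA, the TATA box; none of the matches shown overlap.
C1qb, chr4:136886201-136886450, minus strand: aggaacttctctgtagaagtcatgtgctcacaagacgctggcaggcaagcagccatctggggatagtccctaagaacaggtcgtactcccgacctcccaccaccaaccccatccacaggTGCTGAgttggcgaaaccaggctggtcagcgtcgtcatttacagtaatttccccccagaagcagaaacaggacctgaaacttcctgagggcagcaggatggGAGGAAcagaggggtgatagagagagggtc
C1qc, chr4:136892915-136893164, minus strand: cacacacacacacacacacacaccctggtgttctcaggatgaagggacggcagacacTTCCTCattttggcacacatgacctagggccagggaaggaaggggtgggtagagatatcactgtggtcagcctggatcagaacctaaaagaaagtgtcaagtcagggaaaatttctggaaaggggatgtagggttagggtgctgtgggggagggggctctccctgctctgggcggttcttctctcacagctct
C3ar1, chr6:122856158-122856407, minus strand: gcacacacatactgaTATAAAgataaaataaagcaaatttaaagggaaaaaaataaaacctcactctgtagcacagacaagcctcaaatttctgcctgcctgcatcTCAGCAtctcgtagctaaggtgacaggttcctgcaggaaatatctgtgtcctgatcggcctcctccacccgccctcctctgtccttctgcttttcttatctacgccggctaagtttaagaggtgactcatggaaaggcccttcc
Cfp, chrX:20931556-20931805, minus strand: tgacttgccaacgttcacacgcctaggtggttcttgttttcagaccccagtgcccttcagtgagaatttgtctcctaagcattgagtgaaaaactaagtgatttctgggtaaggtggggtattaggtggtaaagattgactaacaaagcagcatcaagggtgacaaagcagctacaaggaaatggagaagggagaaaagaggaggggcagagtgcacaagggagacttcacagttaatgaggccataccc
Cfd, chr10:79890603-79890852, plus strand: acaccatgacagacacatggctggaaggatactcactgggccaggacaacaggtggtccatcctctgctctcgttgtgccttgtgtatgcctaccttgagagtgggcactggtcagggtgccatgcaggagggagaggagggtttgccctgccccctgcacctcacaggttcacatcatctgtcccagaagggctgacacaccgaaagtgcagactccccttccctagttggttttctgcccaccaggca

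GAGGAA was found once in C1qb and once in C1qc, with its first base 30 and 193 bases before the start, and 23.1% of the 27025 promoter windows of all genes hold it. TGCTGA was found once in C1qb and once in C3ar1, where 15.8% of all windows hold it. TATAAA was found in C3ar1 and is in 13% of all windows, and the interferon-stimulated element, in 3.04% of all windows, was in none of the 5. The windows of Cfp and Cfd held none of the 4 motifs. Of the 32 matched promoters of this list, 7 held GAGGAA and 9 held TGCTGA.

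Among genes of the classical C3 convertase and of the alternative loop, C4b, Cfb and Cfp were lower by similar amounts, and C3 less so. C2 was lower too, by an amount that depended on the pseudocount (log2 ratio -1.62, or -2.35 with 0.1 FPKM). C4b had 5.70 against 16.6 FPKM, from 196 and 642 fragments, and a log2 ratio of -1.47. C2, the protease partner of C4b, had 0.307 against 1.98 FPKM, from only 5 and 36 fragments, with an interval of the ratio from 0.0478 to 0.399. Cfb, the factor B of the alternative convertase, had 4.94 against 14.8 FPKM, a log2 ratio of -1.49. Cfp, properdin, which stabilises that convertase, had 16.3 against 55.9 FPKM, with an interval from 0.244 to 0.350 (chromosome X, 20925454 to 20931555). C3, on which all pathways act, had 87.2 against 122 FPKM, 1.40-fold lower, from 2857 and 4496 fragments. C3 was thus high in both libraries and under the 1.5-fold limit at this scaling. Of the 6 measured genes of this role, 4 were past 2-fold lower, against 5.14% of all measured genes. C2, among the 4, reached the filter through the untreated library alone, where it was higher.

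Cfd, factor D, which cleaves factor B and is made in quantity by fat cells, was the exception. Its FPKM was 3.76 in the treated and 1.47 in the untreated tissue, 2.16-fold higher (log2 ratio 1.11). By its shortest and its longest curated transcript these levels stand for 17 or 18 fragments against 7 or 8, with intervals of the ratio from 1.07 to 7.78 and from 1.05 to 6.72. The counting error thus nearly reaches equality, and with a pseudocount of 1 FPKM Cfd was no longer past 2-fold. Of 6 adipocyte markers, 2 were measured. Adipoq, the gene of adiponectin, had 0.729 against 0.654 FPKM, and Car3 had 1.58 against 0.405. Lep was listed at 0 in both libraries, and Plin1, Retn and Cidec were listed at 0 in the untreated library. The summed FPKM of the list was 3.69 against 1.06, and the part of these markers in the value of Cfd was not tested.

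C2, Cfb and C4b lie within the MHC class III region of chromosome 17, with 87 bases between Cfb and C2 and 112471 bases between C4b and Cfb. Overlapping models (a joint model of C2 and Cfb, and Zbtb12, which lies on the other strand of C2) make the assignment of reads there uncertain. The 8 measured genes between and within 50 kb of them had log2 ratios from -0.54 (Stk19) to 0.43 (Zbtb12), with a median of -0.26. All 3 complement genes, at -1.62, -1.49 and -1.47, lay below every one of these neighbours. Nelfe, whose end lies next to Cfb, had 9.92 against 13.4 FPKM.

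**Figure D2:**
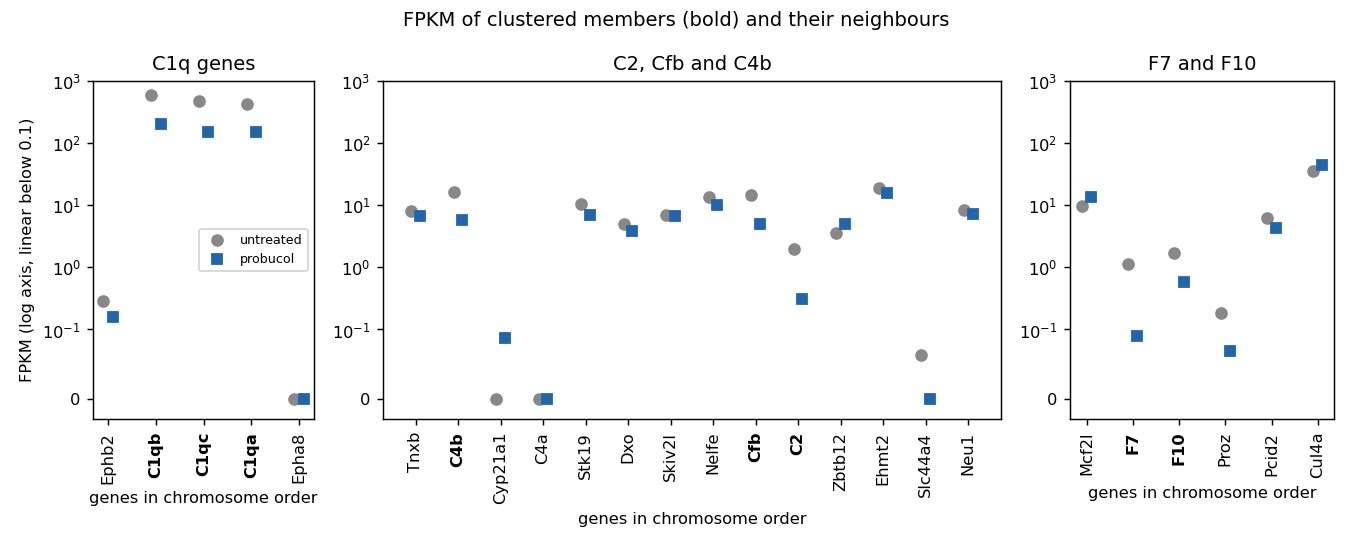
FPKM (log axis, linear below 0.1) in the untreated library (grey circles) and the probucol library (blue squares) for genes in chromosome order at 3 loci, with the genes of the list in bold. The C1q genes, C4b, Cfb, C2, F7 and F10 show wide gaps between the libraries, while the measured neighbours of C2, Cfb and C4b lie between -0.54 and 0.43 on the log2 scale.

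The anaphylatoxin receptors, which sense the fragments of C3 and C5 on myeloid cells, were both 2-fold or more lower at the deposited scaling. C3ar1 (chromosome 6, 122847138 to 122856161) had 3.98 against 17.6 FPKM, from 108 and 539 fragments, 4.05-fold lower and the lowest log2 ratio of the 37, at -2.02. With a pseudocount of 0.1 FPKM, F7 (-2.70) and C2 (-2.35) lay below it (-2.12). C5ar1 had 4.36 against 10.3 FPKM, 2.21-fold lower, and after rescaling by ribosomal protein genes it was not past 2-fold (-0.95). C5, the source of the ligand of C5ar1, is encoded by Hc, which was at 0 and 1 fragment, within the 3 fragments that a count of 0 allows. Macrophage markers were lower as well: 9 of 10 were at least 1.5-fold lower, none was listed at 0, and their summed FPKM was 590 against 2146, with log2 ratios from -2.35 (Cd68) to -0.36 (Lyve1). The C1q chains, Cfp and C3ar1 lay within that range, but it is wide and also held genes such as Clu (-0.62), Vwf (-0.69) and Serpinf1 (-0.94). All 4 monocyte markers were at least 2-fold lower (summed FPKM 7.62 against 25.4). Of 6 neutrophil markers, 5 were measured, with 3 above 0 and 2 below on the log2 scale and a summed FPKM of 145 against 102. The part of any of these lists in these results was not tested, and in bulk tissue fewer cells of a type and less RNA per cell cannot be told apart.

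Of 5 measured complement regulators, the secreted inhibitors Clu and Serping1 were past 1.5-fold lower, while vitronectin, also secreted, and the membrane-bound Cd55 and Cd59a were not. The share of all measured genes past that limit was 12%. Clu, clusterin, an inhibitor of the terminal complex, had the highest level of the 47 genes in both libraries, at 786 against 1208 FPKM (log2 ratio -0.62). It held 40.8% of the summed FPKM of the list with probucol and 33.4% without. Serping1, the inhibitor of C1r and C1s, had 111 against 170 FPKM, also at -0.62. Vtn, vitronectin, had 14.8 against 13.3 FPKM with an interval from 0.879 to 1.40 that includes equality. Cd55, the decay-accelerating factor, had 9.67 against 11.5 FPKM with an interval from 0.675 to 1.05. Cd59a, which blocks the membrane attack complex, had 75.4 against 55.9 FPKM, a log2 ratio of 0.43, and the interval of its FPKM ratio began at 1.21, above equality. Cfi, the protease that degrades C3b, was under the filter at 0.0801 against 0.503 FPKM. These levels stand for about 1 and 7 fragments, with an interval of the ratio from 0.00356 to 1.25 that includes equality.

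Some complement genes have near-identical copies among which reads can be divided. Of all stretches of 50 bases in the longest coding transcript, 35.2% of those of C4b also occur in C4a, 48.0% of those of C1ra in C1rb, 24.3% of those of C1s1 in C1s2 and 13.3% of those of Cd55 in Cd55b. These 4 copies were listed at 0 in both libraries, so the sums equal the values above. Cd59b shares 3.98% of the stretches of Cd59a and had 2.29 against 0.683 FPKM, and the log2 ratio of their sum was 0.45. Masp1 overlaps Rtp4 and F8 overlaps Fundc2 on the opposite strand, which leaves the assignment of their reads uncertain too.

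Among procoagulant genes, factors VII and X and the A subunit of factor XIII were 2-fold or more lower, and tissue factor was not. F7 was measured through the untreated library alone. With a pseudocount of 1 FPKM, F7 (-0.97) and F10 (-0.78) were no longer past 2-fold. The anticoagulant Tfpi2 (-0.96) was not either, which left 1 of the 4 coagulation genes, F13a1, past that limit. After rescaling by ribosomal protein genes F10 (-0.90) was not past 2-fold. F13a1, the A subunit of the fibrin-crosslinking factor XIII (chromosome 13, 36867178 to 37050244), had 25.4 against 68.3 FPKM, 2.66-fold lower. F10 had 0.586 against 1.72 FPKM (log2 ratio -1.03), about 7 to 9 fragments against 22 to 30 depending on the transcript. Factor X joins both starting arms of the cascade. F7, the partner of tissue factor, had 0.0907 against 1.14 FPKM, an FPKM ratio of 0.0797 from 1 and 14 fragments with an interval from 0.00190 to 0.527. F3, tissue factor, the cell-surface starter of the cascade, had 11.6 against 10.6 FPKM with an interval from 0.853 to 1.41. F8, the antihaemophilic factor that endothelium makes, had 0.548 against 0.679 FPKM, with an interval of the ratio from 0.470 to 1.38 by its shortest transcript. The intervals of F3 and F8 both include equality, and that of F8 allows a wide range.

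F7 and F10 are neighbours on chromosome 8, with 1498 bases between them (F7 at 13026034 to 13035809 and F10 at 13037308 to 13056676). Of 4 other genes within 50 kb, 3 were measured, with log2 ratios of 0.49 (Mcf2l), -0.48 (Pcid2) and 0.31 (Cul4a). Proz, protein Z, next to F10, had 0.0682 against 0.183 FPKM and was not measured.

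F5, the cofactor of activated factor X that platelets also store, lay under the filter but differed the other way. It had 0.351 FPKM with probucol and 0.0185 without, an FPKM ratio of 19.0 from 17 fragments and 1, with an interval from 2.99 to 798. F2rl2, a thrombin receptor of mouse platelets, had 0.265 against 0.0594 FPKM from 4 fragments and 1, with an interval from 0.445 to 221 that includes equality. F2rl3, the partner of F2rl2 on mouse platelets, is not among the 47 and was picked after its value was seen. It had 13 against 5 fragments, with an interval from 0.977 to 10.5. Of 6 platelet markers, 5 were measured and 3 were at least 2-fold higher: Gp9 had 7.93 against 0.444 FPKM, Ppbp 13.9 against 2.92 and Itga2b 3.70 against 0.498. Pf4, which macrophages also express, went the other way at 53.9 against 111 FPKM, and Treml1 had 0.562 against 0.671, so the summed FPKM of the list was 80.3 against 116. None was listed at 0, and the part of platelet RNA in the values of F5, F2rl2 and F2rl3 was not tested.

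Other receptors of thrombin and related proteases differed little. F2r, the main thrombin receptor of vessel wall and fibroblasts, had 10.8 against 13.6 FPKM, an interval from 0.666 to 0.945. F2rl1, which trypsin-like proteases activate, had 0.586 against 0.420 FPKM from 10 and 8 fragments, with an interval from 0.499 to 4.09. At that depth no difference of F2rl1 was detectable. F2rl2 lies inside Iqgap2 on the opposite strand, and the sources used here do not state whether counting used strand. Iqgap2 had 1.64 against 4.81 FPKM, opposite in direction to F2rl2.

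Endothelial genes of the list went in different directions. Thbd, thrombomodulin, which turns thrombin towards protein C, had 29.5 against 23.3 FPKM, from 689 and 610 fragments, with an interval from 1.14 to 1.42. Procr, the endothelial protein C receptor, had 2.31 against 2.58 FPKM and an interval from 0.469 to 1.60. Tfpi, the inhibitor of tissue factor and factor VII, had 62.7 against 67.6 FPKM (log2 ratio -0.11). Vwf, the platelet-binding factor of endothelial granules, had 6.51 against 10.8 FPKM, 1.61-fold lower with an interval from 0.530 to 0.685. Of 10 endothelial markers, none was listed at 0, and 1, Cldn5, was at least 1.5-fold lower. Their summed FPKM was 406 against 417 and their median log2 ratio 0.01. Thbd lay within the range of these markers, from -0.61 to 0.40, while Vwf at -0.69 lay below it.

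The remaining anticoagulants were lower or near detection. Pros1, protein S, had 15.4 against 23.4 FPKM, a log2 ratio of -0.58 that just missed the 1.5-fold limit. Tfpi2, an inhibitor of plasmin and other matrix-bound proteases, had 1.15 against 3.19 FPKM, a log2 ratio of -1.16. Tfpi2 was the 1 measured anticoagulant of 5 past 1.5-fold (20%, against 12% of all measured genes). Its levels stand for about 10 and 31 fragments.

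All 5 measured genes of the fibrinolysis group were at least 1.5-fold lower, where 12% of all measured genes were at the deposited scaling. After rescaling by ribosomal protein genes 3 were, without Plat and Serpine2, and the share of all measured genes was not computed there. Plau, the urokinase activator, had 3.99 against 9.97 FPKM, from 57 and 159 fragments, 2.33-fold lower. Plaur, its receptor, had 3.90 against 7.55 FPKM, 1.83-fold lower. Plat, the tissue activator, had 12.5 against 21.1 FPKM, 1.65-fold lower. Serpine2, protease nexin, which inhibits thrombin and both activators, had 31.9 against 50.7 FPKM, 1.58-fold lower. Serpinf1 had 31.1 against 60.1 FPKM, 1.92-fold lower. It is a serpin that does not inhibit proteases, and it counts among the 5 only because it was placed in this group. Fibroblast markers were lower too: 8 of 8 lay below 0 and 6 were at least 1.5-fold lower, none was at 0, and the summed FPKM was 908 against 1460. Their part in the values of Serpine2, Serpinf1 and Serping1 was not tested.

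**Figure D3:**
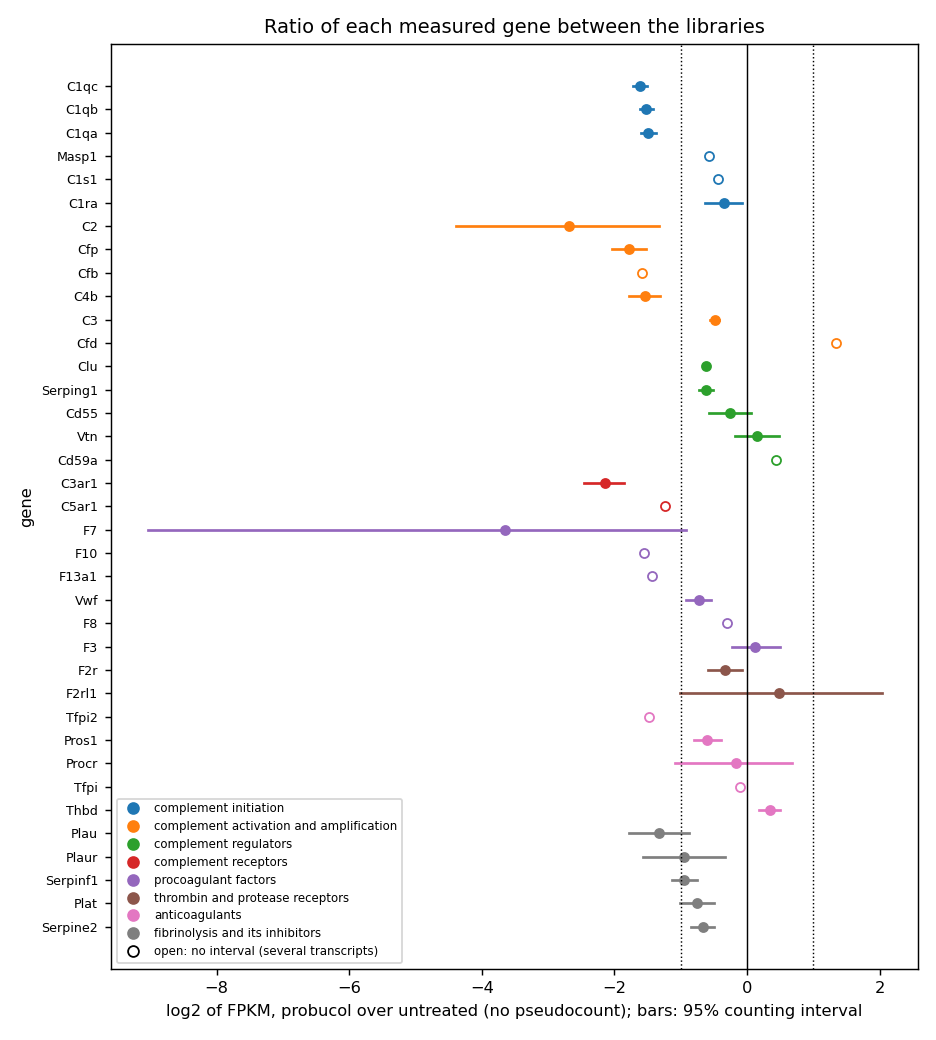
Log2 of the FPKM ratio (probucol over untreated, no pseudocount) for the 37 measured genes, coloured by role, with 95% counting intervals where fragments could be estimated from 1 transcript and open circles elsewhere. Most genes lie left of 0; the intervals of C2, F7 and F2rl1, which rest on few fragments, are the widest, and Cfd is the 1 gene beyond the dotted line on the right.

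Some of the moderate differences depended on how the libraries were scaled. When the libraries were rescaled so that ribosomal protein genes had a median ratio of 1, the median of all measured genes shifted by 0.19 and 16 genes of the list were at least 1.5-fold lower. The 5 that no longer passed were Serping1 (-0.41), Clu (-0.41), Vwf (-0.49), Plat (-0.52) and Serpine2 (-0.46). Cd59a was then past 1.5-fold higher, at 0.63, and Tfpi and Procr changed sign, to 0.10 and 0.04. Rescaling to the total FPKM without the most abundant genes shifted the median by -0.10 in the opposite direction and put 24 genes past 1.5-fold lower, with C3 (-0.60), Masp1 (-0.62) and Pros1 (-0.69) added. The C1q chains, C2, C4b, Cfb, Cfp, C3ar1 and F13a1 stayed at least 2-fold lower under these rescalings. The share of all measured genes past 1.5-fold was not computed after rescaling, so the counts of 16 and 24 have no background beside them.

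**Figure D4:**
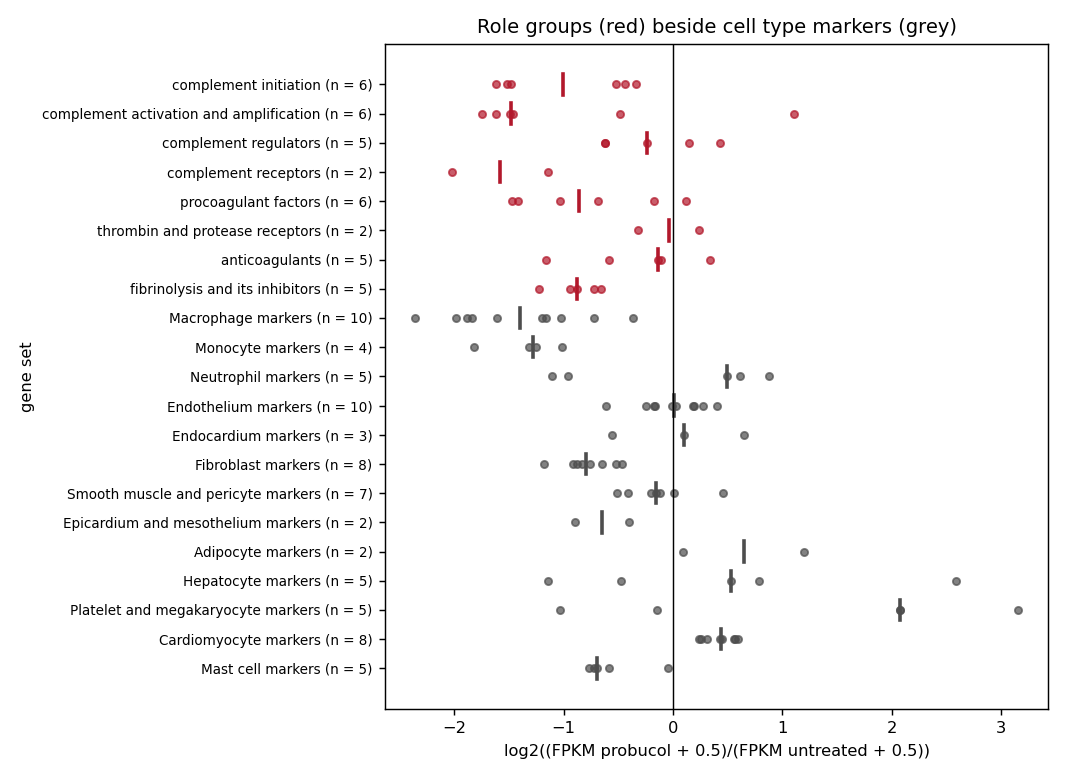
Log2 ratios with the pseudocount for the measured genes of each role group (red) and for cell type markers (grey), each point a gene and each bar the median, with the number of genes beside the name. The lowest complement receptor (-2.02) and activation gene (-1.74) lie within the range of the macrophage markers. The fibrinolysis genes lie within that range too, and their range overlaps that of the fibroblast markers. Endothelial markers centre on 0.01.

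Several circulating factors of the liver were at or near the limit of detection. The 10 genes that were not measured had values from 0 to 0.503 FPKM. Prothrombin (F2) had 1 fragment with probucol and 0 without, plasminogen (Plg) had 1 and 2, and antiplasmin (Serpinf2) had 1 and 0, all within the 3 fragments that a count of 0 allows. Protein C (Proc) had 0.219 FPKM against 0, antithrombin (Serpinc1) was listed at 0 with probucol and had 0.137 FPKM without, and heparin cofactor II (Serpind1) had 0.302 against 0.271 FPKM. For these 6 genes no difference was detectable at this depth. Hepatocyte markers were low as well, with a summed FPKM of 7.75 against 7.28 over 8 genes. Alb, the gene of albumin, had 1.22 against 1.90 FPKM, and Fabp1 was listed at 0 in both libraries.

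Other genes of these pathways, from lists that do not hold the 47, were compared in the same way. Of 40 further complement genes, 18 were measured, with a median log2 ratio of -0.61. Of these, 9 were at least 1.5-fold lower, against 12% of all measured genes, and 1, Cd59b, was higher, against 5.52%, on about 9 and 3 fragments with an interval of the ratio from 0.841 to 19.3. Vsig4, the complement receptor of resident macrophages, had 3.42 against 15.3 FPKM, with an interval from 0.144 to 0.339. Fcna, a ficolin that starts the lectin pathway, had 4.31 against 13.9 FPKM. Ptx3, a pentraxin that binds C1q, had 1.92 against 6.56 FPKM. The integrin chains of the C3 fragment receptors had log2 ratios of -1.15 (Itgam), -1.41 (Itgax) and -1.50 (Itgb2).

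Of 46 further genes of coagulation and fibrinolysis, 25 were measured, with a median of -0.34. Of these, 11 were at least 1.5-fold lower, against 12% of all measured genes at the deposited scaling. After rescaling by ribosomal protein genes 7 were, and the share of all measured genes was not computed there. In the other direction 1, F2rl3, was past 1.5-fold (5.52% of all genes), and none with a filter of 1 FPKM or of 0.5 FPKM in each library. Anxa2 and S100a10, which together form a cell-surface receptor of plasminogen and its activator, had 152 against 294 FPKM and 160 against 266 FPKM. Thbs1, thrombospondin, had 4.14 against 12.2 FPKM.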

How the data were processed

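The authors deposited FPKM, 1 value per gene symbol and library. Per the submitters' processing notes, TopHat2 2.1.1, Bowtie2, Cuffdiff 2.2.1 and mm10 were used; the sources used here give neither their roles nor the gene annotation or any scaling. Per the labels' protocols, libraries were made with a stranded mRNA kit. Groups were taken from the treatment labels. From the FPKM were computed log2 ratios with a pseudocount of 0.5, for genes with a mean of at least 0.5, with Python 3.11.15, pandas 2.3.3 and scipy 1.17.1. Fragments were estimated by fitting the FPKM of 1 fragment, after 210 bases were subtracted from the transcript length (GENCODE M21 transcripts paired with RefSeq), so that low values became whole: 69.0% of 1216 low values in the probucol library and 69.1% of 1156 in the untreated library came within 0.05 of a whole number. The procedure was tested on simulated data. All 47 genes were accounted for; of the other genes of the pathways, up to 8 per list with the largest log2 ratio among those with a mean of at least 1 FPKM, and copies of the 47, could be named. A gene that the rule takes is not reported here. Genes and lists were chosen with earlier results of these data known. Alternatives covered the pseudocount, the filter, the scaling, gene copies and the length constant.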

Additional observations from a re-analysis of the deposited data

How the results depend on the processing

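With 1 library per group, no library could be left out. No paired analysis was possible because each group has 1 library and no result comes from a test. Across pseudocounts of 0.1 and 1 FPKM, filters of 1 FPKM or none, 3 rescalings and a requirement of at least 0.5 FPKM in each library, the last chosen after seeing the data, the number of genes at least 1.5-fold lower ranged from 16 to 24 and the median log2 ratio from -0.77 to -0.46. The number at least 2-fold lower ranged from 11 to 15. The share of all measured genes past these limits was not computed under the alternatives. The number at least 1.5-fold higher, 1 with the settings of the report, was 2 after rescaling by ribosomal protein genes (with Cd59a) and 2 with no filter (with F5). The number at least 2-fold higher was 0 with a pseudocount of 1 FPKM, instead of 1. No gene past 1.5-fold changed sign under these alternatives, while Tfpi, Procr and, with them, the median of the anticoagulants (from -0.14 to 0.04) did after rescaling by ribosomal protein genes. The median of the thrombin receptors moved from -0.04 to between -0.32 and 0.24. Changing the length constant by 50 bases in either direction moved no counting interval of the 32 genes with estimated fragments across equality. Over protein-coding genes alone, a background added after seeing the data, 11.9% were at least 1.5-fold lower. Genes that rest on few fragments, such as F7, F5, F2rl1 and Cfd, are limited by depth.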
